A study of Homo sapiens with 6 samples.

Results

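ATP-binding cassette (ABC) proteins couple the hydrolysis of ATP to the movement of substrates across membranes, and their members were compared here in MV4-11 cells with and without WNK463. The members were the genes whose symbol is ABC, a subfamily letter from A to G and a number, and 45 of the 20348 genes in the table met this rule. They were placed by textbook function in 6 classes, with 18 members in lipid export, 12 in drug and conjugate efflux, 4 in mitochondria, 5 in peroxisomes and lysosomes, 2 regulatory subunits of potassium channels and 4 soluble proteins that are not transporters. Of these, 26 members passed the filter on low counts and were tested, and 19 did not.

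A typical ABC transporter has a pair of membrane domains that form the passage and a pair of nucleotide-binding domains that bind ATP and drive the transport cycle. Subfamilies B, C and G include the pumps that carry drugs and their glutathione or glucuronide conjugates out of cells, and in acute myeloid leukemia (AML) P-glycoprotein (*ABCB1*), MRP1 (*ABCC1*) and BCRP (*ABCG2*) are the best known of them. Subfamily A and part of subfamily G move cholesterol, phospholipids and other lipids, other B members sit in the mitochondrial membrane, and subfamily D serves peroxisomes and lysosomes. Subfamilies E and F keep the nucleotide-binding domains without a membrane part and act on ribosomes and translation.

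The MV4-11 line comes from human AML and carries a *KMT2A* rearrangement and a *FLT3* internal tandem duplication. WNK463 blocks the activity of WNK kinases, which regulate ion transport and cell volume. The transcriptome was sequenced in 3 Control samples and in 3 samples that received 1 μM WNK463 for 48 h, so the comparison covers 1 cell line, 1 dose and 1 time point. The labels do not say that samples of a group came from separate cultures, and p-values then measure only the spread between these samples.

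The total counts per sample lay between 14915745 and 17411780, the 13 mitochondrially encoded genes took between 4.07% and 4.75% of the counts. The labelled cell type was checked with 10 myeloid and AML markers, which all passed the filter on low counts, while 7 of 8 markers of other lineages were below the filter (the exception was *PECAM1*, which rose with a log2 fold change of 0.80). Of the 10, *MPO* and *LYZ* fell with log2 fold changes of -2.50 and -2.22, and *ITGAM* and *PTPRC* rose with 1.25 and 1.20. Levels of different genes are given as TPM, a transcript abundance that accounts for gene length and depth. Changes are given as CPM, the count scaled to the TMM-normalized library size, with log2 fold changes tested by edgeR's quasi-likelihood test across all 11973 tested genes and a Benjamini-Hochberg adjusted p below 0.05. The words rose and fell are used for members past this test.

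In MV4-11 cells treated with WNK463, 12 ABC members rose, 7 fell and 7 did not pass the test. Among lipid exporters of subfamily A, *ABCA9*, *ABCA3*, *ABCA6* and *ABCA7* rose at least 2-fold while *ABCA2* and *ABCA1* fell, and the fold of *ABCA9* rests on 1 count in each Control sample. The conjugate exporter *ABCC2* and the porphyrin transporter *ABCB6* also rose at least 2-fold. The only member that fell at least 2-fold was *ABCF2*, one of the soluble proteins, and with scaling by total counts it missed 2-fold (log2 fold change -0.97). Over all tested genes, 70.8% passed the same test (35.5% higher and 35.3% lower), against 73.1% of the tested members (46.2% higher and 26.9% lower). With a fold change of at least 2 required as well, 7 of 26 members were called (26.9%), against a background of 15.2%, made of 9.62% higher and 5.55% lower. The share of members past the test was near the background. The same shares over all tested genes are the background for the counts by class and by list below. Tested on TPM in place of counts, 23 members could be tested, and 11 were higher and 4 lower. The median log2 fold change was 0.20 over the tested members and 0.02 over all tested genes, and scaling by total counts moved the latter to 0.17. The 3 WNK463 samples did not overlap the 3 Control samples in 21 of the 26 members, against 73.5% of all tested genes. For any of these, an exact two-sided permutation test of 3 against 3 samples cannot give a p below 0.10.

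**Figure D1:**
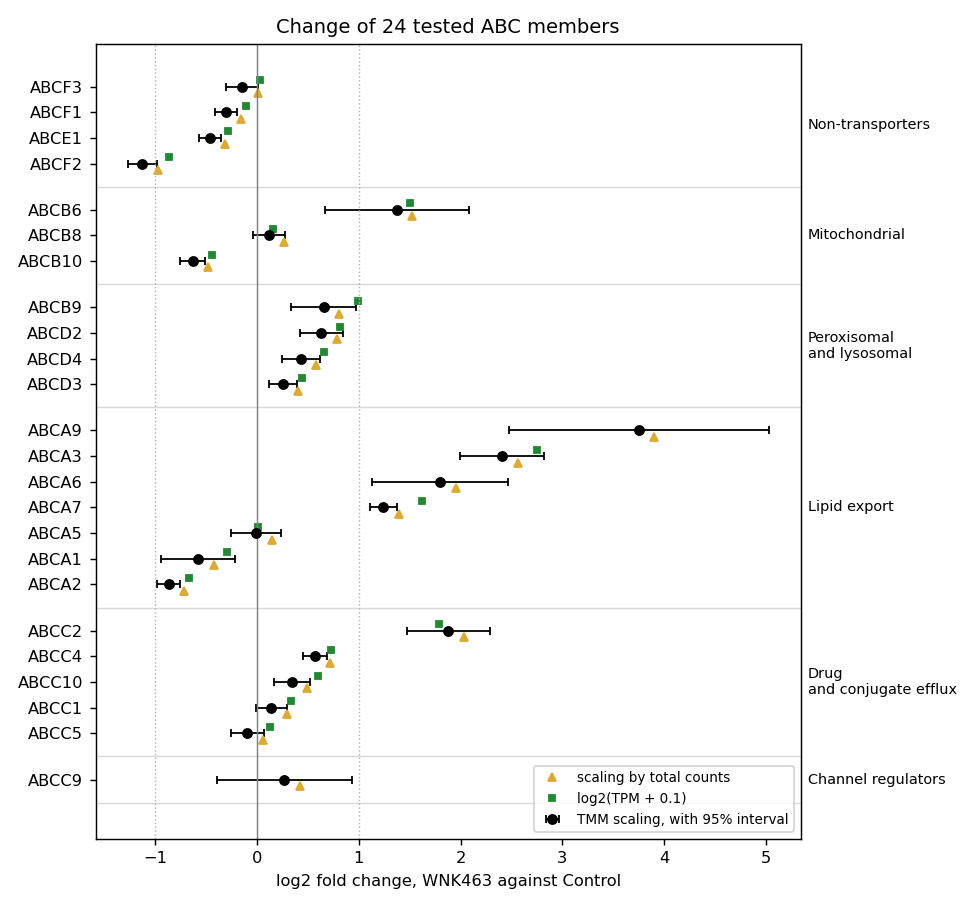
Log2 fold change (x axis) of 24 tested ABC members (y axis, by class), as the TMM-scaled estimate with its 95% interval (black), with scaling by total counts (triangles) and from log2(TPM + 0.1) (squares, absent for 3 members at low TPM). *ABCA9*, *ABCA3*, *ABCC2* and *ABCA6* lie furthest to the right, *ABCF2* lies furthest to the left, and most triangles and squares lie to the right of the black points.

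The members differed widely in level. *ABCE1*, the ribosome recycling factor, had the highest mean of all at 178 ± 13.6 TPM in Control and 147 ± 10.5 TPM with WNK463 (mean ± SD of 3 samples). *ABCF1* and the mitochondrial *ABCB10* came next in Control, at 87.4 ± 2.80 and 79.8 ± 6.49 TPM, and these neighbours did not differ beyond their spread. The highest lipid exporter in Control was *ABCA2* at 51.7 ± 2.17 TPM, and with WNK463 it was *ABCA7* at 57.9 ± 4.52 TPM. The highest drug exporter in both groups was *ABCC4*, with 23.8 ± 1.48 TPM in Control and 39.4 ± 1.16 TPM with WNK463.

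**Figure D2:**
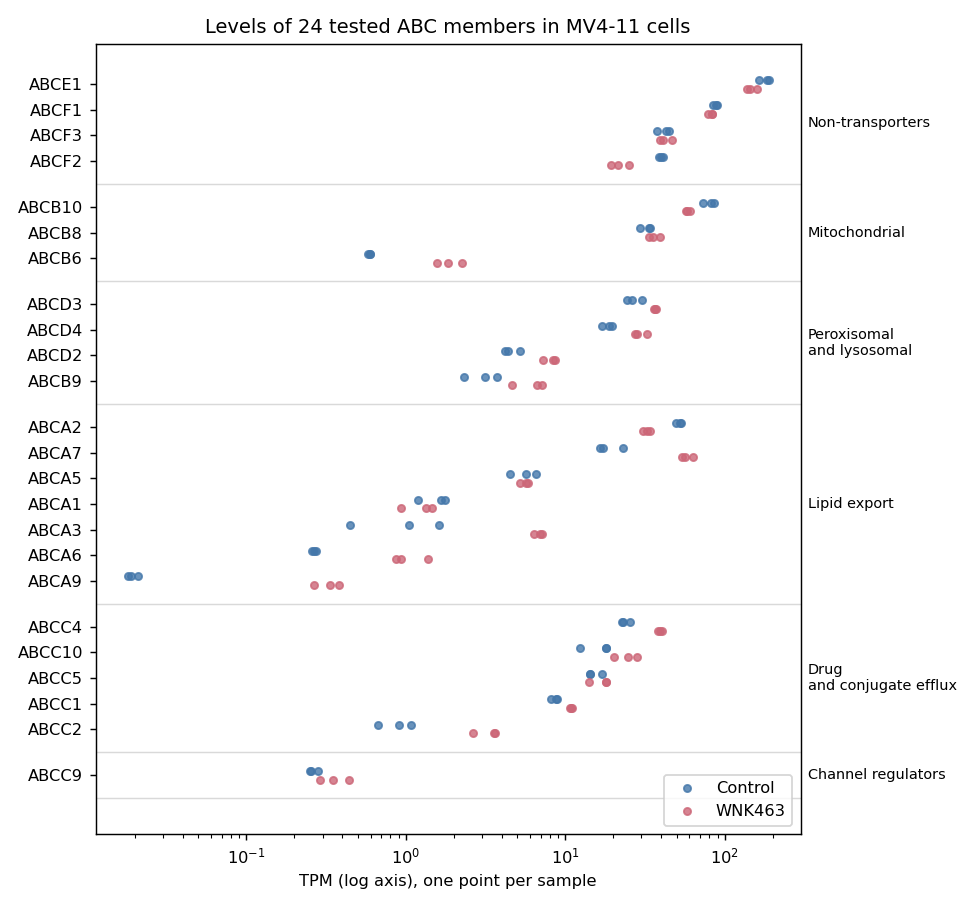
TPM on a log axis (x axis) of 24 tested ABC members (y axis, by class), with 1 point per sample for Control (blue) and WNK463 (red). Levels span from 0.0180 TPM for *ABCA9* in a Control sample to 188 TPM for *ABCE1*, and for *ABCA7*, *ABCA3*, *ABCC2* and *ABCB6* all WNK463 points lie above the Control points.

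The summed TPM of the 45 members was 737 ± 21.1 in Control and 744 ± 11.0 with WNK463 (mean ± SD of 3 samples), and the ranges of the groups overlapped. As a share of all counts, the members were lower with WNK463, at 0.1384% to 0.1402% against 0.1403% to 0.1455% in Control, without overlap. The make-up of the summed TPM differed. The 4 soluble proteins gave 337.9 to 354.1 TPM in Control and 282.4 to 304.1 TPM with WNK463. Drug and conjugate exporters gave 58.4 to 70.5 TPM in Control and 89.7 to 98.5 TPM with WNK463, and lipid exporters gave 74.1 to 82.3 and 103.0 to 111.7 TPM. Mitochondrial members gave 132.1 to 148.3 TPM in Control and 117.8 to 126.8 TPM with WNK463. Peroxisomal and lysosomal members gave 102.5 to 109.5 and 124.7 to 131.7 TPM, and channel regulators gave 0.251 to 0.28 and 0.288 to 0.441 TPM. The samples of the groups did not overlap in the summed TPM of any class, so this separation was not particular to some of them. On log2(TPM + 0.1) the middle tested gene lay at 0.17, against 0.02 with TMM scaling. In mean CPM from Control to WNK463, the lipid exporter *ABCA2* fell from 223 to 122 and *ABCA7* rose from 55.7 to 131. The TPM sums therefore do not show that lipid exporter RNA rose as a class. Whether class sums differed in CPM was not tested.

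**Figure D3:**
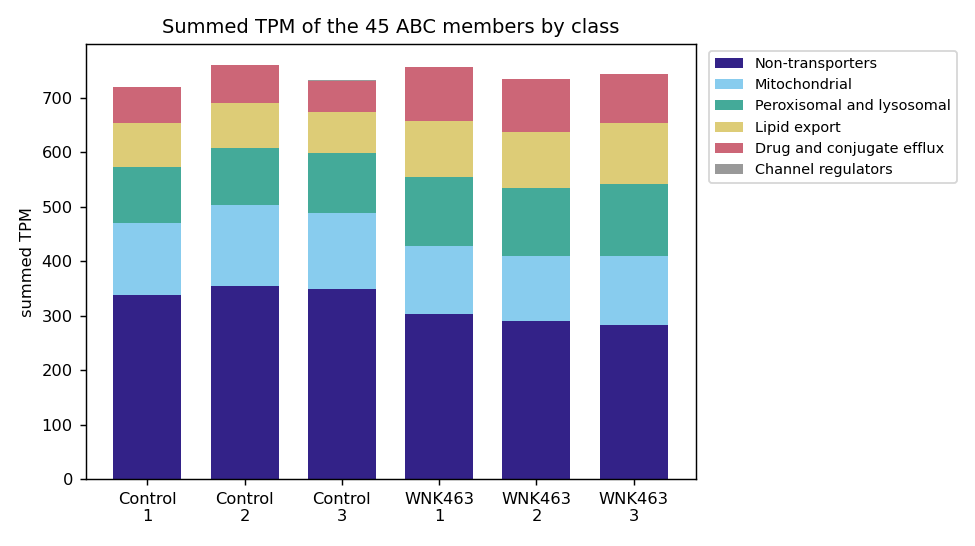
Summed TPM (y axis) of the 45 ABC members in each of the 6 samples (x axis), stacked by class. The total stays between 719.1 and 760.1 TPM, while the soluble proteins take 46.6% to 47.8% of it in Control and 38.0% to 40.3% with WNK463.

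Promoter sequences were taken from RefSeq (GRCh38.p14) for 35 of the 45 members, from 250 bases before to 50 bases after the annotated start. They are shown for 5 members changed at least 2-fold, 2 of them expressed well in both groups (*ABCA7* and *ABCF2*), the most strongly changed drug exporter (*ABCC2*) and a pair of neighbours on chromosome 17 (*ABCA6* and *ABCA9*). *ABCA7* lies at chr19:1039857-1040156 on the plus strand, *ABCF2* at chr7:151227156-151227455 on the minus strand and *ABCC2* at chr10:99782390-99782689 on the plus strand. *ABCA6* lies at chr17:69141846-69142145 and *ABCA9* at chr17:69060878-69061177, both on the minus strand. Capitals mark matches, on either strand, to an E-box (CACGTG), a core antioxidant response element (TGACNNNGC), an E2F motif (TTTNGCGC) or a CCAAT box (CCAAT).
*ABCA7*: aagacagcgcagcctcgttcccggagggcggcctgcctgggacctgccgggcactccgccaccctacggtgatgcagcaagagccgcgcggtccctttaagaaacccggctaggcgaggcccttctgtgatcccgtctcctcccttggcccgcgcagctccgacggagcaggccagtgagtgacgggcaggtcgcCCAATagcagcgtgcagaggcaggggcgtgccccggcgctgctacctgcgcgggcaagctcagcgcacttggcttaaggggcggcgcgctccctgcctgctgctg
*ABCF2*: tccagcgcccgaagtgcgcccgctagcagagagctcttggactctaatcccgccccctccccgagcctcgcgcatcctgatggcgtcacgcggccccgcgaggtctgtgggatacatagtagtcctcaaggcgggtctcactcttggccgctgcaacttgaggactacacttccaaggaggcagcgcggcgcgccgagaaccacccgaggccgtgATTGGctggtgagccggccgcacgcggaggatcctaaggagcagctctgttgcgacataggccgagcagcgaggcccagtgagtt
*ABCC2*: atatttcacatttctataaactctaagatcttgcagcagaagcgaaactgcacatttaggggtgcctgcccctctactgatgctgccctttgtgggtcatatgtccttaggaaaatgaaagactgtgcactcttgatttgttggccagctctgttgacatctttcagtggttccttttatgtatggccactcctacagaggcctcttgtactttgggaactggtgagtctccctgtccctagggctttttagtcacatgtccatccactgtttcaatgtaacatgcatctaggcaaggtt
*ABCA6*: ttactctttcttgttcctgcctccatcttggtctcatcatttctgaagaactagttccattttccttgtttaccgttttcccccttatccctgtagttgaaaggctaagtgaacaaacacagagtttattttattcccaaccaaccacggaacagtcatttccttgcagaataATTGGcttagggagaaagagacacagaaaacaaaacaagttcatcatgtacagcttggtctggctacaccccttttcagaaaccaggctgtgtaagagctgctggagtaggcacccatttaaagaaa
*ABCA9*: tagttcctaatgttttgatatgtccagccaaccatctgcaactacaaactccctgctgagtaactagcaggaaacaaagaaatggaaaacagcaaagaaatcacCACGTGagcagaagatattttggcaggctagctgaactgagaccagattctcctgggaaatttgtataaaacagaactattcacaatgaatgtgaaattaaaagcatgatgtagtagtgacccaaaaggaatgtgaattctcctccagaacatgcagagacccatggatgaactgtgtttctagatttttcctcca
The *ABCA7* and *ABCF2* promoters had a GC content of 70.0% and 65.3%, against 41.7% for *ABCA6* and 39.7% for *ABCA9*. A CCAAT box began at base -55 in *ABCA7*, -35 in *ABCF2* and -77 in *ABCA6*, an E-box began at -146 in *ABCA9*, and *ABCC2* held none of the 4 motifs. Of the members changed at least 2-fold whose sequence is not shown, *ABCA3* held an antioxidant core at -197. The other, *ABCB6*, held an E-box at -156, an antioxidant core at -152 and a CCAAT box at -73. Among the 35 member promoters, 6 held a CCAAT box, 4 an E-box, 7 the antioxidant core and 0 the E2F motif. Over 34943 promoters of the same length these shares were 34.6%, 7.23%, 13.3% and 1.77%. Which start sites the cells used was not measured, and a match of letters is not a binding site.

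The lipid exporters went both ways. Of 18 members 7 were tested, of which 4 rose, 2 fell and 1 did not pass, with a median log2 fold change of 1.24 that is the value of *ABCA7*. Both the 4 and the median include *ABCA9*, which passed the filter on low counts only through the WNK463 samples. *ABCA7* exports phospholipids and is best known in macrophages and microglia. It had 61.1, 55.0 and 50.9 CPM in the Control samples and 132, 135 and 127 CPM in the WNK463 samples. Every WNK463 sample was more than 2-fold above every Control sample, and the log2 fold change was 1.24 (SE 0.06, edgeR adjusted p = 1.2e-11). *ABCA7* lies on chromosome 19 of GRCh38 from 1040101 to 1065572, on the plus strand.

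*ABCA3*, which loads phospholipid into the lamellar bodies of lung epithelium and lies in intracellular vesicles of other cells, had 2.50, 1.65 and 1.59 CPM in Control. With WNK463 it had 11.5, 9.07 and 10.02 CPM. All samples of the treated group were higher, with a log2 fold change of 2.41 (SE 0.20, edgeR adjusted p = 4.9e-09). *ABCA3* lies on the minus strand of chromosome 16, from 2275881 to 2340746.

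*ABCA2*, a transporter of late endosomes and lysosomes linked to sterol and sphingolipid handling, moved in the other direction. It had 234, 224 and 211 CPM in Control and 128, 115 and 124 CPM with WNK463, with no overlap of the groups. The log2 fold change was -0.87 (SE 0.05, edgeR adjusted p = 1.7e-10). *ABCA1*, which hands cellular cholesterol and phospholipid to apolipoprotein A-I, fell from 9.44, 6.65 and 8.90 CPM to 4.59, 5.64 and 6.58 CPM. The highest WNK463 sample and the lowest Control sample of *ABCA1* nearly met, and the log2 fold change was -0.58 (SE 0.17, edgeR adjusted p = 0.0060). Tested on log2(TPM + 0.1) in place of counts, *ABCA1* did not pass, with a log2 fold change of -0.30 and an adjusted p of 0.24 from limma.

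Of the remaining lipid exporters, *ABCA6*, *ABCA9*, *ABCA10*, *ABCA5* and *ABCA8* form a cluster of neighbouring genes on the minus strand of chromosome 17, between 68867292 and 69327244. Their substrates are poorly known, and *ABCA5* has been placed in late endosomes and lysosomes. *ABCA6* had 0.792, 0.754 and 0.732 CPM in Control and 2.17, 3.43 and 2.36 CPM with WNK463. The groups were well apart, with a log2 fold change of 1.80 (SE 0.32, edgeR adjusted p = 6.9e-05). *ABCA9* had 1 count in each Control sample and 16, 19 and 12 counts in the WNK463 samples. The ratio of the summed counts, scaled to library size, was 15.03, with a 95% interval from 4.84 to 75.5 that covers counting error only, and the adjusted p from edgeR was 2.5e-05. *ABCA9* passed the filter on low counts only through the WNK463 samples, so a difference was bound to be seen. Under a stricter filter of 10 counts in each library it was not tested, and 3 lipid exporters and 5 members at 2-fold were higher in place of 4 and 6.

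The other neighbours differed from these. *ABCA10* had 6, 2 and 6 counts in Control and 16, 11 and 6 counts with WNK463, which left it below the filter (it passed in edgeR without WNK463 replicate 3, adjusted p = 0.034) and with groups that nearly met. *ABCA5*, at the other end of the cluster, had 12.9, 10.5 and 11.0 CPM in Control and 11.4, 12.2 and 10.7 CPM with WNK463. These samples overlapped, and the log2 fold change was -0.01 with a 95% interval from -0.25 to 0.24. *ABCA8* had 0 counts in all 6 samples. *ABCA9* shares 534 exon bases with an antisense gene, *ABCA9-AS1*, and *ABCA10* shares 318 with *ABCA5*, so reads from these stretches cannot be assigned with certainty.

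**Figure D4:**
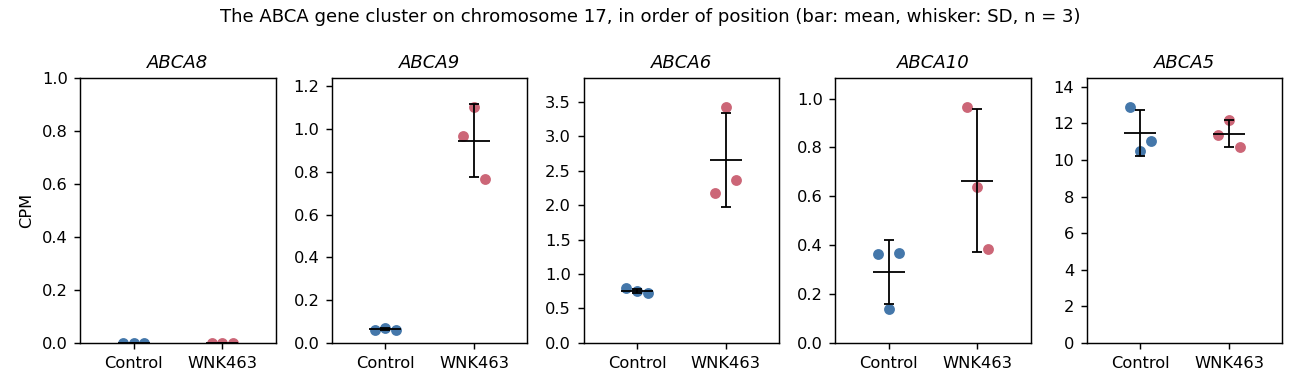
CPM (y axis, scaled per panel) of the 5 ABCA genes on chromosome 17, in order of position, with 1 point per sample, the mean as a bar and the SD as a whisker (n = 3 per group). *ABCA9* and *ABCA6* are separated between Control and WNK463, the points of *ABCA10* nearly meet, those of *ABCA5* overlap, and *ABCA8* stays at 0.

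*ABCG1*, the partner of *ABCA1* in cholesterol export from macrophages, had at most 4 counts in a sample and was not tested. *ABCG4*, which is expressed in brain, had at most 4 counts, and the intestinal and biliary sterol pair *ABCG5* and *ABCG8* had 0 and at most 5. The keratinocyte transporter *ABCA12* had at most 1 count, *ABCA13* at most 2 and the bile phospholipid transporter *ABCB4* at most 3, and the retinal *ABCA4* and the bile salt pump *ABCB11* had 0.

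Around the lipid exporters, 17 of 18 genes of sterol handling and of the liver X receptors (LXR), the nuclear receptors that sense oxysterols and activate *ABCA1* and *ABCG1*, were tested. Of these 7 rose, 5 fell and 5 did not pass, against 35.5% higher and 35.3% lower over all tested genes. *NR1H3* and *NR1H2*, which encode LXRα and LXRβ, rose with log2 fold changes of 0.66 and 0.27. Of the genes for their heterodimer partners, *RXRA* fell with -0.71 and *RXRB* did not pass, at 0.11. Besides *APOE*, some known LXR targets on the list are given here, which is not a full set. *MYLIP* and *SREBF1* fell with -0.69 and -0.97, and *LPCAT3*, *PLTP* and *APOC1* did not pass, at -0.09, -0.01 and 0.34. At least 2-fold changes were seen in the cholesteryl ester hydrolase *NCEH1*, which rose from 31.3 ± 3.04 to 71.3 ± 2.99 CPM, and in the lipoprotein receptor *SCARB1*, which fell from 165 ± 5.996 to 80.5 ± 6.34 CPM (mean ± SD of 3 samples). *APOE* had 0, 2 and 0 counts in Control and 16, 18 and 12 counts with WNK463, and *CYP27A1* had 1, 0 and 4 counts and 35, 24 and 16 counts. Both are among the 7 but passed the filter only through the WNK463 samples.

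Because several lipid exporters are macrophage genes, 12 macrophage markers were counted beside them. Their summed level was 5.32 to 6.58 TPM in Control and 43.4 to 47.3 TPM with WNK463. Most of the sum with WNK463 came from *C1QA* alone, at 28.0 ± 3.40 TPM against 1.86 ± 1.17 TPM in Control (mean ± SD of 3 samples). Of the 5 tested markers, 4 were higher. These were the complement genes *C1QA*, *C1QB* and *C1QC* and *FOLR2*, of which the complement genes passed the filter only through the WNK463 samples (*C1QB* had at most 1 and *C1QC* at most 4 counts in a Control sample). The fifth, *MARCO*, did not pass the test, with a log2 fold change of -0.27. The other 7 were below the filter. *VSIG4* had 3, 0 and 2 counts in Control and 7, 7 and 11 with WNK463, and *GPNMB* had 0 counts in Control and 5, 2 and 3 with WNK463. *MSR1* had 1 count in each Control sample and 0 with WNK463, *CD163* and *MRC1* had 0 in Control and at most 1 with WNK463, and *CD5L* and *LYVE1* had 0 in all samples. In a bulk sample, a change in the number of cells of a type and a change in RNA per cell cannot be told apart, and the part of these markers' cells in the exporter changes was not tested.

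Among drug and conjugate exporters, 5 of 12 members were tested, of which 3 rose, 0 fell and 2 did not pass, with a median log2 fold change of 0.34. *ABCC2* (MRP2), the exporter of glutathione and glucuronide conjugates into bile, had 2.19, 2.95 and 2.07 CPM in Control and 7.25, 9.30 and 9.90 CPM with WNK463. The groups did not overlap, and the log2 fold change was 1.88 (SE 0.19, edgeR adjusted p = 1.1e-07). It remained a low level transcript, at 3.26 ± 0.533 TPM with WNK463. *ABCC2* lies on the plus strand of chromosome 10, from 99782640 to 99852594.

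*ABCC4* (MRP4), which exports cyclic nucleotides, nucleoside analogue drugs and prostaglandins, had 70.3, 74.2 and 68.3 CPM in Control and 103, 104 and 108 CPM with WNK463. All treated samples were higher, with a log2 fold change of 0.57 (SE 0.05, edgeR adjusted p = 4.3e-08). *ABCC10* (MRP7), an exporter of taxanes, rose from 29.6 ± 3.16 to 37.5 ± 2.20 CPM (mean ± SD of 3 samples), a log2 fold change of 0.34. *ABCC1* (MRP1), the glutathione and leukotriene conjugate exporter, had 30.0 ± 1.77 CPM in Control and 33.1 ± 0.209 CPM with WNK463. Its log2 fold change of 0.14 did not pass the test, with a 95% interval from -0.01 to 0.30. With scaling by total counts *ABCC1* did pass, with a log2 fold change of 0.29 and an adjusted p of 0.0018 from edgeR. On log2(TPM + 1) and log2(TPM + 0.1) it also passed, at 0.31 and 0.34 (adjusted p = 0.0038 from limma in both). With TMM scaling *ABCC5* (MRP5) did not pass either, at -0.10 with an interval from -0.26 to 0.07. The sign of *ABCC5* was opposite with total counts and with TPM.

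Unlike *ABCC1*, the pumps *ABCB1* and *ABCG2* were not detected or barely so. *ABCB1* (P-glycoprotein) had 0 counts in all 6 samples, which allows up to 3 counts or between 0.174 and 0.206 CPM in a sample. *ABCG2* (BCRP) had 2, 4 and 2 counts in Control and 5, 1 and 1 counts with WNK463. *ABCB5* and *ABCC12* had 0 counts, *ABCC3* had 1 count in 1 Control sample, and *ABCC11* had 2, 0 and 0 counts in Control and 3 in each WNK463 sample. *ABCC6*, the transporter lost in pseudoxanthoma elasticum, had 0 counts in every Control sample and 2, 2 and 9 counts with WNK463. *ABCC6* has near-identical pseudogene copies, its counts are uncertain for that reason, and most of them came from 1 sample. *ABCC6* was below the filter, and it passed the test with DESeq2 (adjusted p = 0.023) and in edgeR without a filter (adjusted p = 0.0086).

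Of 11 genes that serve conjugate export, 9 were tested, and 4 rose and 3 fell. The shares over all tested genes were 35.5% higher and 35.3% lower. *GCLC*, the catalytic subunit of the enzyme that starts glutathione synthesis, rose from 18.1 ± 0.816 to 39.0 ± 1.88 CPM (mean ± SD of 3 samples). The glutathione transferase *MGST1* fell from 3.78 ± 0.533 to 1.66 ± 0.404 CPM (mean ± SD of 3 samples).

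All 4 mitochondrial members were tested, and 1 rose, 1 fell and 2 did not pass. *ABCB10*, an inner membrane protein needed for heme synthesis, had 153, 176 and 170 CPM in Control and 106, 104 and 112 CPM with WNK463. The groups did not overlap and the log2 fold change was -0.63 (SE 0.06, edgeR adjusted p = 2.1e-08). *ABCB6*, a porphyrin transporter placed in the outer mitochondrial membrane and in endolysosomes, had 0.913, 0.892 and 0.793 CPM in Control and 1.57, 2.09 and 3.13 CPM with WNK463. All treated samples were higher though spread widely among themselves, with a log2 fold change of 1.37 (SE 0.34, edgeR adjusted p = 0.0015). *ABCB6* lies on the minus strand of chromosome 2, from 219209766 to 219219017, and 54.7% of its exon bases are shared with another annotated gene on the same strand (ENSG00000284820), which had 7, 4 and 7 counts in Control and 29, 20 and 10 counts with WNK463. With the counts of both genes summed, which was chosen after seeing the data, the log2 fold change was 1.46.

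*ABCB8*, a subunit of a mitochondrial potassium channel complex, had a log2 fold change of 0.12 with a 95% interval from -0.04 to 0.28, and with total counts it passed at 0.27. Of 19 genes of iron-sulfur cluster and heme synthesis, 6 rose, 6 fell and 7 did not pass. The shares over all tested genes were 35.5% higher and 35.3% lower. *TMEM14C*, a carrier of the heme precursor protoporphyrinogen, rose from 42.3 ± 4.79 to 86.8 ± 3.17 CPM (mean ± SD of 3 samples).

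Of the peroxisomal and lysosomal members, 4 of 5 rose, with a median log2 fold change of 0.43 and none changed 2-fold. *ABCD2*, a peroxisomal importer of very long chain fatty acyl-CoA, rose from 14.3, 14.6 and 17.4 CPM to 25.5, 24.6 and 21.6 CPM. The groups did not overlap, with a log2 fold change of 0.63 (SE 0.10, edgeR adjusted p = 2.1e-05).

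*ABCD3*, the peroxisomal carrier of branched chain acyl-CoA and bile acid precursors, rose with a log2 fold change of 0.25 (SE 0.06). *ABCD4*, which releases vitamin B12 from lysosomes, rose with 0.43 (SE 0.09), and the lysosomal peptide transporter *ABCB9* rose with 0.65 (SE 0.15). *ABCB9* shares 20.7% of its exon bases with a transcript on the opposite strand. The partner of *ABCD4* in B12 release, *LMBRD1*, rose from 28.4 ± 0.975 to 53.1 ± 1.22 CPM (mean ± SD of 3 samples). Of the 12 genes listed for peroxisomes and cobalamin 8 rose, 1 fell and 3 did not pass, with a median log2 fold change of 0.24, and none changed 2-fold. The shares over all tested genes were 35.5% higher and 35.3% lower.

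The soluble members had 0 genes higher, 3 lower and 1 that did not pass, with a median log2 fold change of -0.38. *ABCE1*, which splits ribosomes into subunits after termination, had 303, 333 and 322 CPM in Control and 242, 227 and 227 CPM with WNK463. The groups did not overlap, with a log2 fold change of -0.46 (SE 0.05, edgeR adjusted p = 1.8e-07). *ABCF2* belongs to a family of ribosome-associated ATPases. It had 94.4, 84.2 and 85.0 CPM in Control and 38.2, 43.6 and 38.9 CPM with WNK463, with a log2 fold change of -1.13 (SE 0.07, edgeR adjusted p = 9.1e-11). All WNK463 samples were far below the Control samples.

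*ABCF2* lies on the minus strand of chromosome 7, from 151212490 to 151227230, and shares 45.8% of its exon bases with a read-through gene to the neighbouring histone gene, *ABCF2-H2BK1*. The read-through gene was estimated at 71.5, 68.3 and 72.2 CPM in Control and 60.4, 51.3 and 58.9 CPM with WNK463, a smaller fall (log2 fold change -0.32, SE 0.07). With the counts of both genes summed, chosen after seeing the data, the log2 fold change was -0.71 and no longer reached 2-fold.

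*ABCF1*, which binds ribosomes and translation initiation factors, fell from 159 ± 6.76 to 129 ± 2.32 CPM (mean ± SD of 3 samples), a log2 fold change of -0.31 (SE 0.05). With log2(TPM + 0.1) *ABCF1* was at -0.10 and did not pass (adjusted p = 0.16 from limma). *ABCF3* had 49.7 ± 4.99 CPM in Control and 44.99 ± 1.80 CPM with WNK463, with a log2 fold change of -0.14, a 95% interval from -0.30 to 0.01, and the opposite sign with total counts and TPM. Without Control replicate 3 *ABCF3* passed at -0.23 (edgeR adjusted p = 0.0096). Of 11 genes for ribosome recycling, termination and initiation that work with these proteins, 8 fell, 2 rose and 1 did not pass. Their median log2 fold change was -0.25, and none changed 2-fold. The shares over all tested genes were 35.3% lower and 35.5% higher. *GCN1*, which senses stalled ribosomes and activates the kinase GCN2, fell from 298 ± 22.1 to 199 ± 11.5 CPM (mean ± SD of 3 samples). The gene for GCN2 itself, *EIF2AK4*, was one of the 2 that rose, with a log2 fold change of 0.28 (SE 0.06).

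**Figure D5:**
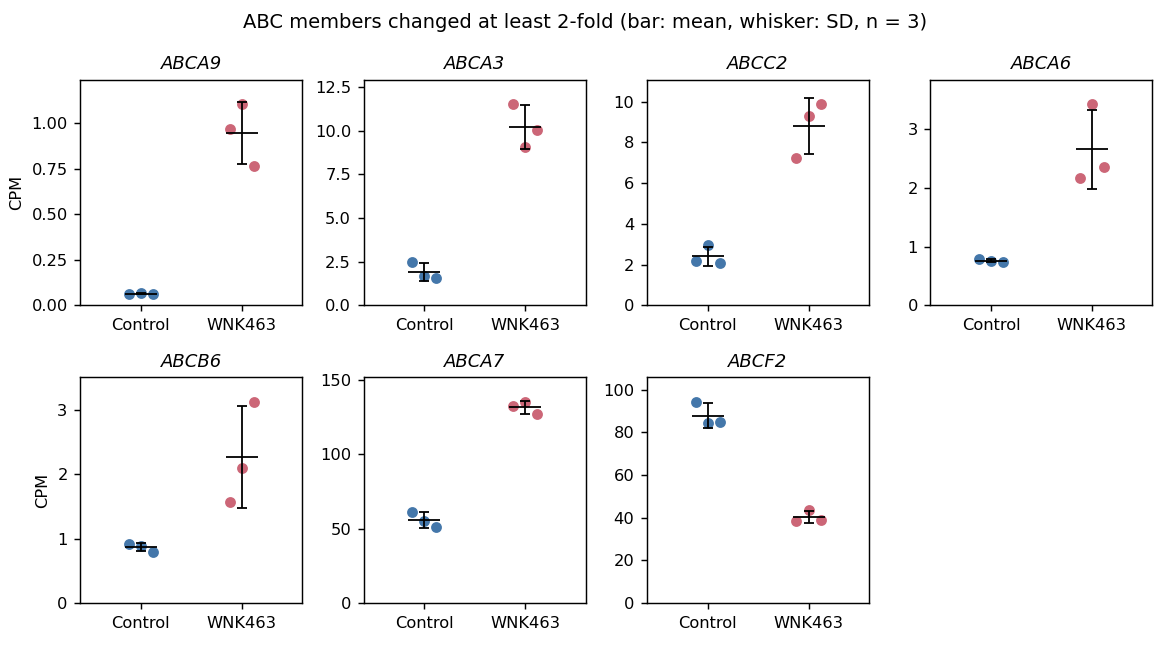
CPM (y axis, from 0, scaled per panel) of the 7 ABC members changed at least 2-fold, with 1 point per sample for Control (blue) and WNK463 (red), the mean as a bar and the SD as a whisker (n = 3 per group). In each panel the groups are apart, and *ABCF2* is the only one with WNK463 below Control.

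The channel regulators *ABCC8* and *ABCC9* encode the sulfonylurea receptors that gate ATP-sensitive potassium channels. *ABCC8* had 0 counts in all samples. *ABCC9* had 1.22, 1.17 and 1.28 CPM in Control and 1.15, 1.80 and 1.47 CPM with WNK463, which overlapped, and its log2 fold change of 0.27 had a 95% interval from -0.39 to 0.93. The 2 genes for the pore of these channels, *KCNJ8* and *KCNJ11*, were below the filter. The family also has members with other symbols, which the rule did not take. The peptide transporter subunits of antigen presentation moved in opposite directions, as *TAP1* rose from 46.4 ± 0.340 to 53.8 ± 2.11 CPM and *TAP2* fell from 65.5 ± 6.57 to 32.4 ± 1.29 CPM (mean ± SD of 3 samples), and the chloride channel *CFTR* had at most 2 counts.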

How the data were processed

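RNA-seq was made from 3 Control and 3 WNK463-treated MV4-11 samples, grouped by their labels. The authors deposited 1 table of 20348 genes with estimated counts, given as whole numbers, and with TPM values per sample that sum to 1000000. The submitters' processing notes list fastp, Bowtie2, HISAT2, StringTie, RSEM, DESeq2, edgeR and GRCh38, with no role given. The table also holds the authors' group means, fold changes and p-values, which were not used.

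The counts as deposited were filtered, TMM-normalized and tested with edgeR 4.0.16 (quasi-likelihood test, default filter, no replicate block) in R 4.3.3, on all genes. The standard error of each log2 change was derived from its F statistic. Alternatives were DESeq2 1.42.0, total-count scaling, other filters, limma 3.58.1 on log2(TPM + 1) and log2(TPM + 0.1) for genes with a TPM of at least 1 in 3 samples, a replicate block, glmTreat and leaving out each sample. Scripts were tested on simulated data. Total counts lay between 14915745 and 17411780, which sets the precision of low members, and intervals on counts cover counting error only. Replicates of a group differed by more than sampling noise (chi-square per degree of freedom from 2.68 to 7.40).

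The members, classes and gene lists were chosen with earlier results of these data known. Values in every sample are given for members changed at least 2-fold and for the most abundant member of each class, except that values of some members are not reported here, and list genes are named when changed at least 2-fold. *NR1H3*, *NR1H2*, *RXRA*, *RXRB*, *MYLIP*, *SREBF1*, *LPCAT3*, *PLTP*, *APOC1*, *LMBRD1*, *GCN1*, *EIF2AK4*, *TAP1*, *ABCA1*, *ABCA5*, *ABCA10* and *ABCD2* were named with more detail after their values were seen. Gene positions and exon overlaps are from GENCODE 29, and promoters from RefSeq. The sources used here do not state whether counting used strand, so reads from overlapping genes on opposite strands cannot be told apart.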

Additional observations from a re-analysis of the deposited data

How the results depend on the processing

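Of 359 combinations of a tested member and an alternative, 335 kept the side of the threshold, 17 lost the call, 7 gained it, and 0 reversed a called change. The sign changed in some alternatives for *ABCC5*, *ABCF3* and *ABCA5*, without a pass of the test in either direction there. The number of members that rose was 12 and of those that fell 7. With each sample left out these ranged from 12 to 13 and from 7 to 8, the 2-fold rises from 6 to 7, the higher lipid exporters from 4 to 5, the lower mitochondrial members from 1 to 2 and the lower soluble members from 3 to 4. The settings that changed a count by more than 1.5 times were glmTreat, TPM and, for small counts, the scaling, the filter, the overlap with another gene and leaving out Control replicate 1 (the lower mitochondrial members).

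With glmTreat against a 1.5-fold change, 6 members were higher and 2 lower, and the calls fell to 1 higher in drug export, 1 lower in lipid export, 0 lower in mitochondria, 0 higher and 0 lower in peroxisomes and lysosomes, and 1 lower among soluble members. With limma on log2(TPM + 1) or log2(TPM + 0.1), 23 members were tested and 4 were lower, with 2 higher and 1 lower in lipid export and 0 lower in peroxisomes and lysosomes, 0 lower by 2-fold, and 3 higher by 2-fold with the pseudocount of 1. With total-count scaling, which moved the median log2 change over tested genes from 0.02 to 0.17, 2 mitochondrial members were higher and 0 members were lower by 2-fold. Without a filter on low counts 2 mitochondrial members were lower, and with *ABCF2* summed with its read-through gene 0 members were lower by 2-fold.

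Same-numbered Control and WNK463 samples showed no shared deviation (correlations across genes of 0.02, -0.01 and -0.05). Such values cannot exclude that same-numbered samples shared a culture or batch, and the labels do not say whether the numbers pair them. With the replicate block, 12 members were higher and 7 lower. Depth limits the 19 members below the filter, whose highest count was 16.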
